A study of Mus musculus with 12 samples.

Results

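The mRNAs of 8 regulators of cytokine mRNA decay were followed in bone marrow-derived macrophages (BMDMs). They are the 3 tristetraprolin family genes Zfp36, Zfp36l1 and Zfp36l2, the gene of Regnase-1 (Zc3h12a), the 2 Roquin genes (Rc3h1 and Rc3h2) and the 2 AU-rich element binders Elavl1 and Khsrp. They were taken by symbol from 23997 gene rows, and all 8 passed the filter on low values that left 10581 genes for testing (1 FPKM or more in 3 or more libraries). FPKM counts fragments per kilobase of transcript relative to a size set for each library. RNA-seq covered 12 libraries in 4 groups of 3: untreated WT cells (WT_0h), untreated Pim1-/- cells (KO_0h), and WT and Pim1-/- cells given LPS at 100 ng/ml for 4 h (WT_4h and KO_4h). Every group came from male C57BL/6 mice aged 8 to 10 weeks, whose marrow cells were grown with human macrophage colony-stimulating factor at 10 ng/ml for 7 d. The Pim1-/- mice were made by CRISPR/Cas9 editing that removed exons I–V, and the number of founder lines is not given in the sources used here. Nothing states that replicates came from separate mice or cultures, so p-values measure only the spread between these libraries.

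Zfp36 and Zc3h12a rose after LPS in both genotypes and Zfp36l1 and Zfp36l2 fell, so that the tristetraprolin family went from mostly Zfp36l2 mRNA to almost entirely Zfp36 mRNA. In untreated cells lacking Pim1, Zfp36, Zfp36l1 and Zc3h12a were lower than in WT cells. After LPS Zfp36 was still lower, by 2.02-fold in mean FPKM, while Zfp36l2 turned from 1.86-fold lower to 1.65-fold higher. The Roquin mRNAs differed little between the genotypes.

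Many inflammatory mRNAs carry AU-rich elements in their 3′ untranslated regions (3′ UTRs). Proteins of the tristetraprolin family bind these elements through paired zinc fingers and recruit the deadenylase complex that shortens the poly(A) tail, and Khsrp also promotes decay of such mRNAs, whereas Elavl1 (HuR) generally stabilizes them. Regnase-1 is an endonuclease and the Roquins are non-cleaving binders, and these proteins recognize stem-loops with a loop of a pyrimidine, a purine and a pyrimidine. In macrophages LPS starts both the transcription of cytokine genes and the production of several of these brakes, and MAP kinase signals inactivate tristetraprolin by phosphorylation.

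The level of Pim1, the deleted gene, was 21.5 to 25.0 FPKM in WT_0h and 8.00 to 9.51 in KO_0h, and 630 to 665 in WT_4h and 205 to 236 in KO_4h. It was lower in the libraries labelled Pim1-/- at both times, without overlap, and the value covers the whole gene rather than the deleted exons. From the steps between low values, 35892000 to 46265000 fragments per library were estimated to lie in genes, although 65.1 to 73.1% of the low values used lay within 0.05 of a whole fragment. The members themselves took between 118 fragments, for Zfp36l1, and 45013, for Zfp36, in a library. All 8 macrophage markers were present in every group, whereas markers of B cells, T and NK cells, erythroid cells and mast cells summed to at most 0.113 FPKM in a library. Dendritic cell markers summed to at most 2.77, neutrophil markers to 1.54 to 7.76 and stromal markers to 0.724 to 4.56 FPKM. In these bulk samples, fewer cells of a type and less RNA per cell cannot be told apart.

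Matches to the sequences that these proteins are known to read are shown first, since the mRNAs of some members hold them. The nonamer TTATTTATT, which contains the pentamer ATTTA and can overlap itself, was searched on the sense strand of the 3′ UTR of the longest coding transcript of GENCODE M21. It was in 6 of the 8 members, and it was in 793 of 9838 tested genes with a 3′ UTR (8.1%). Tested genes with 3′ UTRs of about the same length held it in 4.8% for Zfp36, 9.0% for Zfp36l1, 8.8% for Zfp36l2, 26.5% for Rc3h1, 21.9% for Rc3h2 and 17.8% for Elavl1. Elavl1 held 8 overlapping or separate copies, and the other 5 members held 1 each. Zc3h12a and Khsrp held none, which says only that these letters are not in these 3′ UTRs. The first site of each member of the tristetraprolin family, and those of the target mRNAs Tnf, Cxcl1 and Csf2 and of Pim1, are given with 10 bases on either side and coordinates on GRCm38, and that of Elavl1 is given for its repeats. Capitals mark nonamers, further ones that run past the end included.
Zfp36, chr7:28376951-28376979, minus strand: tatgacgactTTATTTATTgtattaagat
Zfp36l1, chr12:80108167-80108195, minus strand: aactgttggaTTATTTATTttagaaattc
Zfp36l2, chr17:84184914-84184942, minus strand: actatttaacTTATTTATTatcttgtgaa
Elavl1, chr8:4285788-4285816, minus strand: gtcatgaaaaTTATTTATTTATTTATTTA
Tnf, chr17:35199689-35199717, minus strand: tttgcacttaTTATTTATTATTTATTTAT
Cxcl1, chr5:90892615-90892643, plus strand: atttatgtatTTATTTATTccacaaagtg
Csf2, chr11:54247329-54247357, minus strand: ttttaaatatTTATTTATTTATTTATTTA
Pim1, chr17:29495689-29495717, plus strand: tttaatgtatTTATTTATTTATTTATTtg

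The members of the family carried a lone nonamer, while Tnf held 5, Csf2 4 and Pim1 3. For the stem-loop binders, perfect stems of 6 Watson-Crick pairs around such a loop of 3 bases were searched in the same 3′ UTRs. They were in 3 members (Zc3h12a, Rc3h1 and Rc3h2) and in 992 of the 9838 tested genes (10.1%). Longer 3′ UTRs hold more of them, and among tested genes with 3′ UTRs of about the same length the share was 6.1% for Zc3h12a, 36.5% for Rc3h1 and 28.5% for Rc3h2. The first match of Zc3h12a (of 3), and those of Tnf and Nfkbid among its known targets (of 2 each), are shown. Capitals mark the stem and loop. A match is a stretch of letters and not a shown binding site.
Zc3h12a, chr4:125119065-125119087, minus strand: tgttGATACACATTGTATCtctg
Tnf, chr17:35199581-35199603, minus strand: acatGTTTTCTGTGAAAACggag
Nfkbid, chr7:30428398-30428420, plus strand: aggtGATTTCTGTGAAATCgagc

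**Figure D1:**
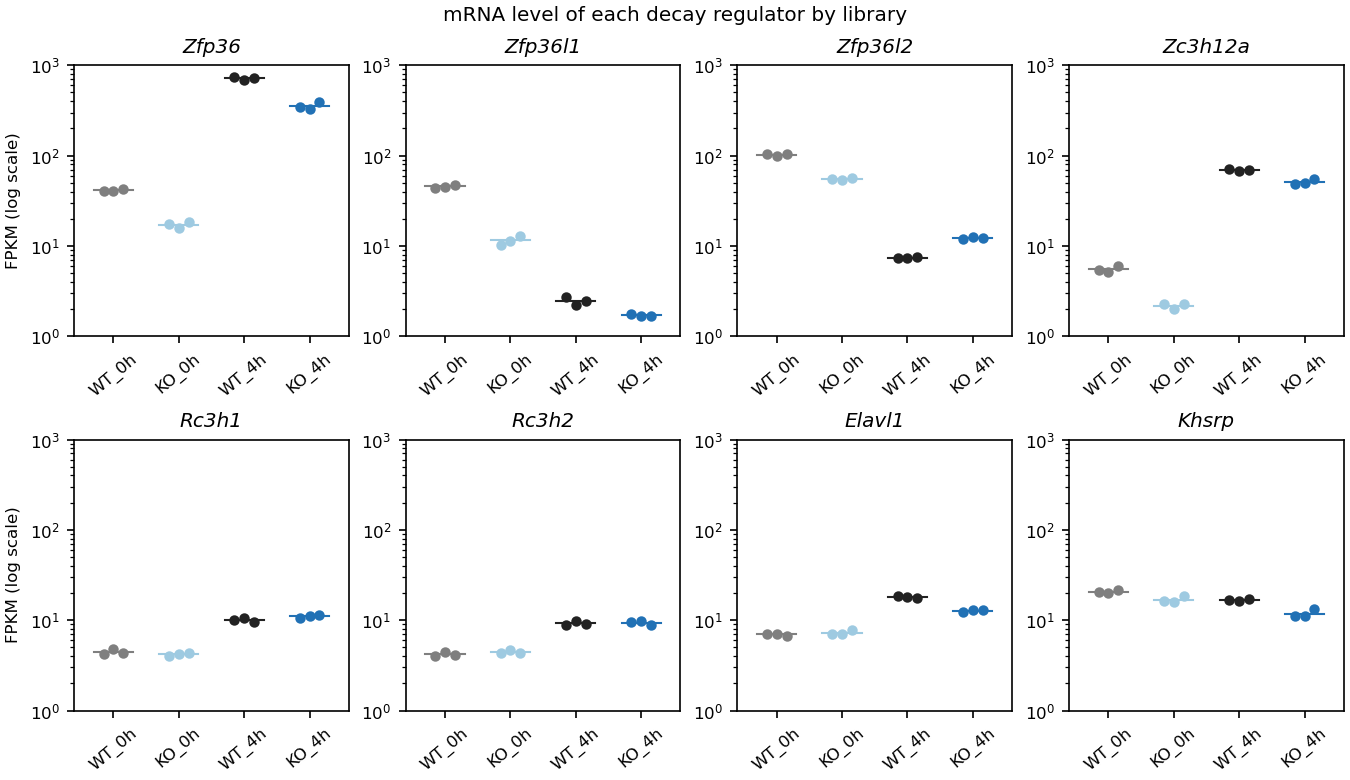
Level of each decay regulator in FPKM on a log axis, for the 3 libraries of each of 4 groups (points) with the group mean (line). Zfp36 and Zc3h12a stand higher after LPS and Zfp36l1 and Zfp36l2 lower, in both genotypes, and Zfp36l1 falls from 44.1 to 47.4 FPKM in WT_0h to 2.24 to 2.73 in WT_4h.

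Zfp36 (chr7:28376784-28380253, minus strand, GRCm38 as for all genes) encodes tristetraprolin, which destabilizes Tnf and other mRNAs. Its level was 41.1, 41.1 and 42.9 FPKM in WT_0h and 17.4, 15.9 and 18.4 in KO_0h. After LPS it was 746, 678 and 720 FPKM in WT_4h and 347, 325 and 392 in KO_4h. The order of the group means was KO_0h, WT_0h, KO_4h and WT_4h, and no neighbouring groups overlapped. In log2(FPKM + 1), on which all tests were run with limma, the difference between Pim1-/- and WT was −1.23 (SE 0.0645, adjusted p = 1.39e-10) without treatment and −1.01 (adjusted p = 1.16e-09) after LPS. A change was called when it was over 2-fold with p under 0.05 and a false discovery rate (FDR) under 0.1. The value after LPS lay at the 2-fold limit, and its 95% interval ran from −1.15 to −0.87. It was no longer past the limit without replicate 1 of KO_4h (−0.999), replicate 2 of KO_4h (−0.95) or replicate 1 of WT_4h (−0.98), with adjusted p of at most 3.23e-08. LPS raised Zfp36 by 17.2-fold in WT cells (log2 4.07) and by 20.6-fold in Pim1-/- cells (log2 4.28). The difference between these responses, 0.22, passed the FDR alone (adjusted p = 0.0509, limma). It was 0.62 under quantile normalization and 0.39 under sum scaling. It missed the FDR with no filter on low values (adjusted p = 0.106) and without replicate 2 of KO_0h (0.16, adjusted p = 0.135), replicate 3 of KO_4h (0.14, adjusted p = 0.126) or replicate 2 of WT_4h (0.18, adjusted p = 0.124).

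Zfp36l1 (chr12:80107754-80113013, minus strand) and Zfp36l2 (chr17:84183931-84187947, minus strand) encode the other tristetraprolin family proteins of macrophages, which bind the same AU-rich elements and also act in cell cycle exit and in blood cell development. Zfp36l1 was at 44.1, 45.5 and 47.4 FPKM in WT_0h and at 10.3, 11.4 and 12.9 in KO_0h. With LPS it was at 2.73, 2.24 and 2.48 FPKM in WT_4h and at 1.77, 1.66 and 1.70 in KO_4h. The groups did not overlap, and the gap between the genotypes was the widest of the 8 members without treatment, 3.96-fold in mean FPKM. The difference in log2 was −1.90 (SE 0.0704, adjusted p = 1.95e-12) in untreated cells and −0.36 (adjusted p = 0.000247) after LPS, where it was not called. The lowest levels are close to the pseudocount of 1, which compresses that difference. With a pseudocount of 0.1 the difference after LPS was −0.51.

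Zfp36l2 was at 103, 99.2 and 104 FPKM in WT_0h and at 54.7, 53.5 and 56.8 in KO_0h. After LPS it was at 7.32, 7.34 and 7.62 FPKM in WT_4h and at 11.9, 12.4 and 12.4 in KO_4h. The Pim1-/- libraries were thus below every WT library without treatment and above every WT library after LPS. The differences were −0.88 (adjusted p = 3.39e-11) and 0.65 (adjusted p = 1.12e-09) in log2, and neither reached 2-fold.

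LPS lowered both genes in both genotypes. Zfp36l1 fell by 3.75 on the log2 scale in WT and by 2.21 in Pim1-/- cells, and Zfp36l2 fell by 3.62 and by 2.08. In the test of the difference itself, the response of Pim1-/- cells was less negative by 1.54 for Zfp36l1 (95% interval 1.33 to 1.75, adjusted p = 4.49e-09) and by 1.53 for Zfp36l2 (95% interval 1.41 to 1.66, adjusted p = 1.51e-11). Both were called. In the same test Zfp36, the family member that LPS raised, differed by 0.22.

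**Figure D2:**
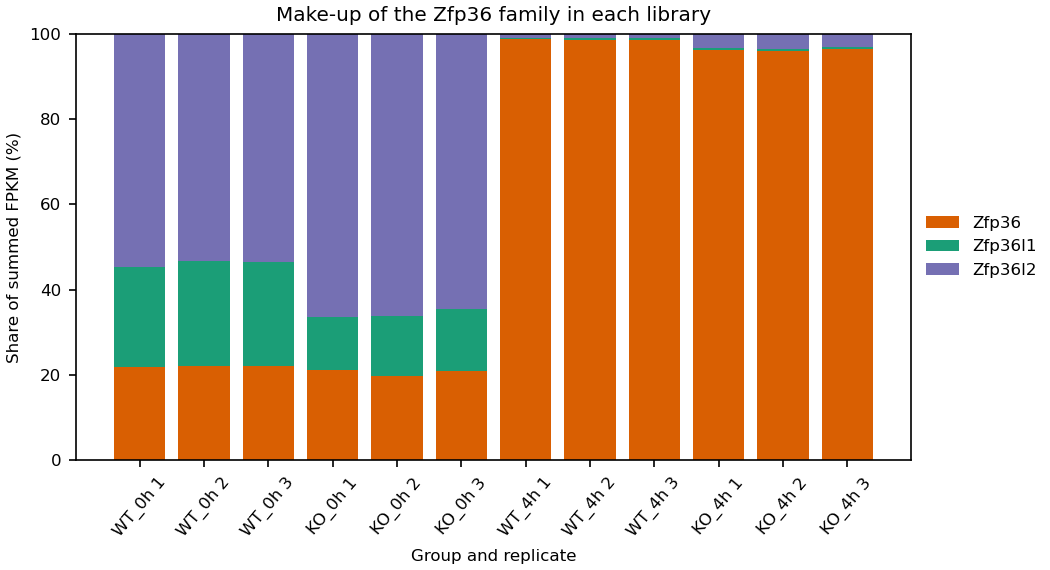
Share of the summed FPKM of Zfp36, Zfp36l1 and Zfp36l2 that each gene took, in percent, as stacked bars for the 12 libraries. Zfp36 made up 19.7 to 22.1% without treatment and 95.8 to 98.7% after LPS.

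The balance within the family is a ratio inside each library, so that no scaling between libraries enters it. In WT_0h Zfp36l2 made up 53.4 to 54.8% of the summed FPKM, Zfp36l1 23.4 to 24.5% and Zfp36 21.8 to 22.1%. In KO_0h Zfp36l2 made up 64.5 to 66.4%, Zfp36l1 12.5 to 14.7% and Zfp36 19.7 to 21.1%. The family's sum was 186 to 195 FPKM in WT_0h and 80.8 to 88.1 in KO_0h, so Zfp36l1 gave up share to Zfp36l2 within a smaller total. After LPS the sum was 688 to 756 FPKM in WT_4h and 339 to 406 in KO_4h. Zfp36 was then 98.6 to 98.7% of it in WT_4h and 95.8 to 96.5% in KO_4h, and Zfp36l2 was 0.969 to 1.07% and 3.05 to 3.67%. The plot of shares by library shows the same make-up in every replicate of a group.

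Zc3h12a (chr4:125118423-125127840, minus strand) encodes Regnase-1, which cleaves mRNAs such as Il6 and is itself destroyed after Toll-like receptor signals. It was at 5.49, 5.21 and 6.03 FPKM in WT_0h and at 2.30, 1.99 and 2.30 in KO_0h. At 4 h of LPS it was at 70.7, 68.2 and 70.1 FPKM in WT_4h and at 48.6, 50.3 and 54.6 in KO_4h. Neither pair of groups overlapped. Without treatment the mean FPKM was 2.54-fold lower in Pim1-/- cells, and the pseudocount of 1 compresses this difference in log2. The difference between genotypes in log2 was −1.04 (SE 0.0588, adjusted p = 3.3e-10) in untreated cells. On that scale it was −0.99 without replicate 2 of KO_0h or replicate 3 of WT_0h, just inside 2-fold, and it ran from −1.31 to −0.99 over all alternatives. After LPS it was −0.44 (adjusted p = 5.67e-06) and not called, and it was −0.15 under quantile normalization and −0.24 under sum scaling. LPS raised Zc3h12a by 12.5-fold in WT and by 23.3-fold in Pim1-/- cells, and the difference in response, 0.60 in log2 (adjusted p = 1.51e-05), was below 2-fold, also with 0.99 under quantile normalization and 0.89 under sum scaling.

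Rc3h1 (chr1:160906418-160974978, plus strand) and Rc3h2 (chr2:37370069-37422903, minus strand) encode Roquin-1 and Roquin-2, which bind constitutive decay elements and deliver mRNAs to deadenylation. Rc3h1 was at 4.27, 4.77 and 4.39 FPKM in WT_0h, at 4.03, 4.27 and 4.32 in KO_0h, at 10.1, 10.5 and 9.66 in WT_4h and at 10.5, 11.2 and 11.6 in KO_4h. Rc3h2 was at 4.05, 4.42 and 4.12 FPKM in WT_0h, at 4.38, 4.73 and 4.33 in KO_0h, at 8.77, 9.76 and 9.11 in WT_4h and at 9.60, 9.73 and 8.79 in KO_4h. The genotypes overlapped in both genes without treatment and in Rc3h2 after LPS. The difference between genotypes without treatment was −0.07 for Rc3h1 (95% interval −0.19 to 0.04, adjusted p = 0.242) and 0.08 for Rc3h2 (95% interval −0.04 to 0.20, adjusted p = 0.228). In LPS-treated cells it was 0.13 for Rc3h1 (95% interval 0.01 to 0.24, adjusted p = 0.0444) and 0.02 for Rc3h2 (95% interval −0.10 to 0.14, adjusted p = 0.726).

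Both Roquin mRNAs were higher after LPS than before in every library. Rc3h1 rose by 1.02 in WT and by 1.22 in Pim1-/- cells in log2, both called, and Rc3h2 had values of 0.97 and 0.92, just under 2-fold. These calls rest on the 2-fold limit. Rc3h1 in WT cells was at 0.99 without replicate 1 of WT_0h or replicate 2 of WT_4h, and under scaling of each library to the same sum it was at 0.33 in WT and 0.68 in Pim1-/- cells. Rc3h2 passed 2-fold in WT cells with a pseudocount of 0.1 (1.12), with quantile normalization (1.04), without replicate 2 of WT_0h (1.005) and without replicate 1 of WT_4h (1.006), and in Pim1-/- cells with a pseudocount of 0.1 (1.05). The 2 genes stayed near equal amounts, with Rc3h1 at 47.4 to 56.8% of their summed FPKM over the 12 libraries.

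Elavl1 (chr8:4285382-4325413, minus strand) encodes HuR, which competes for AU-rich elements and stabilizes the mRNAs that carry them. It was at 7.06, 7.04 and 6.76 FPKM in WT_0h and at 7.08, 7.08 and 7.78 in KO_0h. After LPS it was at 18.3, 18.0 and 17.6 FPKM in WT_4h and at 12.2, 12.97 and 13.02 in KO_4h. The Pim1-/- libraries stood just above the WT libraries without treatment and well below them after LPS. The genotype difference was 0.06 in untreated cells (95% interval −0.04 to 0.17, adjusted p = 0.252) and −0.47 after LPS (adjusted p = 3.34e-07), below 2-fold. Elavl1 rose by 1.25 in log2 with LPS in WT cells, which was called, and its change in Pim1-/- cells was 0.72, which was not. The difference in response was −0.53 (95% interval −0.68 to −0.38, adjusted p = 7.55e-06).

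Khsrp (chr17:57021051-57031522, minus strand) encodes KSRP, a KH-domain protein that recruits decay enzymes to AU-rich mRNAs. It was at 20.7, 20.0 and 21.4 FPKM in WT_0h and at 16.5, 16.0 and 18.4 in KO_0h. With LPS it was at 16.8, 16.5 and 17.2 FPKM in WT_4h and at 11.0, 11.1 and 13.3 in KO_4h. WT libraries were higher at each time, while WT_4h and KO_0h overlapped. The genotype difference was −0.27 (adjusted p = 0.00135) and −0.48 (adjusted p = 6.32e-06) without and with LPS. The LPS change was −0.28 in WT and −0.49 in Pim1-/- cells, and none of these reached 2-fold.

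Taking the stabilizer and the destabilizer together as a ratio within a library, Zfp36 stood at 5.82 to 6.34 times the FPKM of Elavl1 in WT_0h and at 2.25 to 2.46 times in KO_0h. After LPS it stood at 37.7 to 40.9 times in WT_4h and at 25.0 to 30.1 times in KO_4h. The ratio of Zc3h12a to Rc3h1, whose proteins share stem-loop targets, was 1.09 to 1.37 in WT_0h, 0.465 to 0.570 in KO_0h, 6.49 to 7.26 in WT_4h and 4.47 to 4.73 in KO_4h. Both ratios were lower in every Pim1-/- library than in any WT library of the same treatment.

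**Figure D3:**
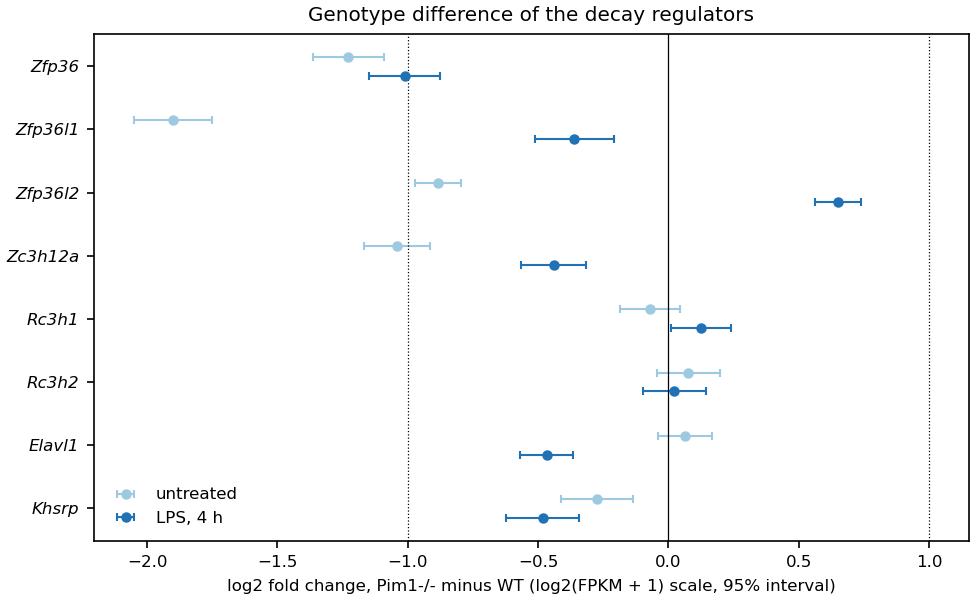
Difference between Pim1-/- and WT cells for each member as log2 fold change on the log2(FPKM + 1) scale, untreated (light) and after LPS (dark), with 95% intervals. Dotted lines mark 2-fold. Zfp36, Zfp36l1 and Zc3h12a lie past 2-fold without treatment and Zfp36l2 changes side.

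Counted over the 8 members, 3 were called lower and 0 higher in KO_0h than in WT_0h, where 3.37% of all genes tested were called lower and 4.4% higher. With the FDR alone 5 members were lower and 0 higher, and that held for 44.2% and 34.6% of all genes. After LPS 1 member was called lower and 0 higher, beside 5.15% and 3.51% of all genes. With the FDR alone 5 members were lower and 2 higher after LPS, beside 43.4% and 37.6% of all genes, so that a difference below 2-fold was common in the whole table. Scaling every library to the same sum turned the split of all genes called after LPS from 371 higher and 545 lower to 610 higher and 377 lower. Under that scaling Zfp36 differed by −0.81 after LPS, Zfp36l1 by −0.24, Rc3h1 by 0.32, Elavl1 by −0.28 and Khsrp by −0.29, beside a median of all genes of 0.13. Rc3h1 also missed the FDR without replicate 3 of KO_4h (adjusted p = 0.134, limma) or of WT_4h (adjusted p = 0.157). Without treatment Zfp36, Zfp36l1, Zfp36l2 and Zc3h12a differed by −1.20, −1.89, −0.83 and −1.13 under it.

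Markers of dividing cells moved with the genotype. They summed to 13.5 to 16.0 FPKM in WT_0h and 216 to 224 in KO_0h, and to 33.2 to 34.9 in WT_4h and 117 to 129 in KO_4h. In Pim1-/- cells 5 of 5 were called higher without treatment and 4 of 5 after LPS, beside 4.4% and 3.51% of all genes. With LPS in WT cells 1 of the 5 was called higher and 2 lower, beside 20.1% and 14.7% of all genes. The median of the 5 was −0.52. Most of them thus did not share the higher sum in WT_4h. The macrophage markers summed to 27853 to 29901 FPKM in WT_0h, 14378 to 15297 in KO_0h, 30804 to 31298 in WT_4h and 15921 to 17784 in KO_4h. In each comparison of genotypes 3 of 8 were called lower, beside 3.37% of all genes without treatment and 5.15% after LPS. Most of the macrophage sum is Lyz2, at 25358.3 to 27492.5 FPKM in WT_0h and 12732.2 to 13751.1 in KO_0h. The log2 differences of the 8 markers between genotypes ran from −1.67 to −0.06 without treatment and from −2.14 to −0.13 after LPS. Stromal markers, with 0 of the 2 tested called, summed to 2.52 to 2.92 FPKM in WT_0h and 0.724 to 0.945 in KO_0h, and to 3.56 to 4.56 in WT_4h and 0.915 to 1.56 in KO_4h. Neutrophil markers summed to 1.54 to 1.85 FPKM in WT_0h and 3.23 to 4.21 in KO_0h, without overlap, and to 5.52 to 7.76 in WT_4h and 3.16 to 6.13 in KO_4h, which overlapped. Of the 2 neutrophil markers tested, S100a9 was called lower in Pim1-/- cells after LPS (−1.17). S100a9 was at 2.30 to 4.09 FPKM in WT_4h and at 0.639 to 0.856 in KO_4h. It passed the filter on low values only through WT_4h, so this call is not separate from the filter. The part of any of these in the members' differences was not tested.

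**Figure D4:**
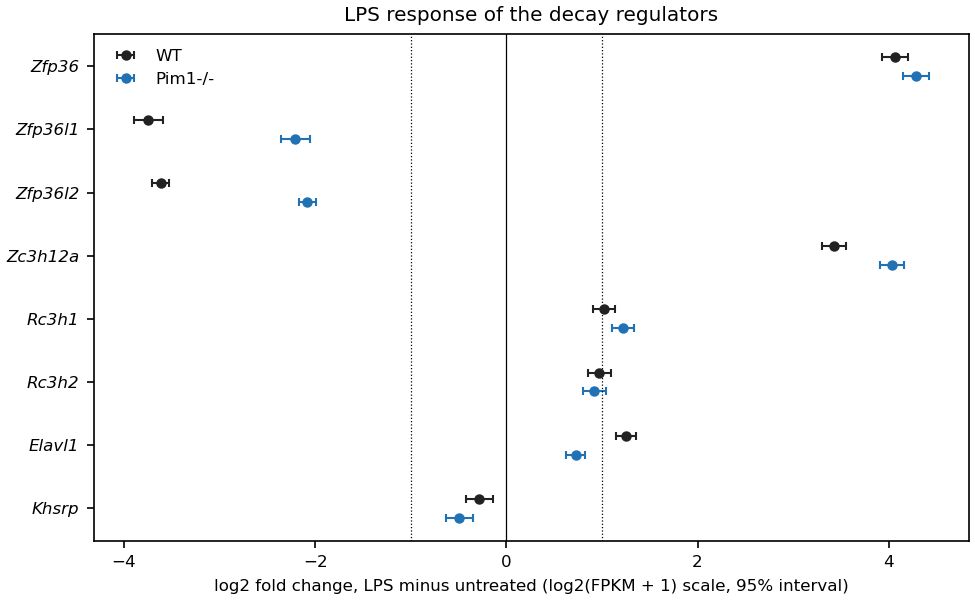
Change from untreated to LPS for each member as log2 fold change on the log2(FPKM + 1) scale, in WT (black) and Pim1-/- cells (blue), with 95% intervals. Dotted lines mark 2-fold. The intervals of the genotypes are apart for Zfp36l1, Zfp36l2, Zc3h12a and Elavl1.

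LPS changed 6 of the 8 members in WT cells, 4 higher and 2 lower, beside 20.1% of all genes called higher and 14.7% lower. In Pim1-/- cells 3 were called higher and 2 lower, beside 14.6% and 10.4%. With the FDR alone 5 members were higher and 3 lower in each genotype, beside 45.8% and 45.4% of all genes in WT cells and 43.2% and 44% in Pim1-/- cells. For the difference in response 2 members were called higher and 0 lower, beside 2.24% and 4.43% of all genes. With the FDR alone these counts were 5 and 2, beside 32.7% and 35.8%. The comparisons share their groups, so they are not separate evidence.

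The LPS changes of the less responsive members depend on the scale. The deposited FPKM summed to 452511 to 489710 in untreated libraries and to 713307 to 849323 after LPS. With each library scaled to the same sum, the median change of all genes moved from 0.00 to −0.71 in WT and from −0.01 to −0.62 in Pim1-/- cells, and the genes called in WT went from 2130 higher and 1556 lower to 1236 and 4079. In Pim1-/- cells they went from 1546 and 1103 to 1026 and 3146, and for the difference in response from 237 and 469 to 413 and 423. With quantile normalization 1644 were higher and 1807 lower in WT cells. Median-ratio scaling, with factors of 0.986 to 1.014 per library, changed little. It gave 2096 higher and 1581 lower in WT cells, with Rc3h1 at 1.003 and Elavl1 at 1.24. Under sum scaling Rc3h1 changed by 0.33, Rc3h2 by 0.29, Elavl1 by 0.53 and Khsrp by −1.07 in WT cells. The calls of Rc3h1 and Elavl1 were lost and Khsrp was called lower. Relative to the median the values were 1.04, 1.00, 1.24 and −0.36. In Pim1-/- cells they changed by 0.68, 0.37, 0.13 and −1.14 under sum scaling, where the call of Rc3h1 was lost and Khsrp was called lower, and by 1.30, 0.99, 0.75 and −0.52 relative to the median. Zfp36 and Zc3h12a stayed above 2-fold higher and Zfp36l1 and Zfp36l2 above 2-fold lower after LPS under each scaling in both genotypes.

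The windows upstream of the start sites were read for the members that moved most with LPS, from the RefSeq promoter table on GRCm38.p6, which matched 7 of the 8 members. Zfp36l2 was the member without a window. Each stretch shown ends at the base before the annotated start. That of Zfp36 is not shown, since GENCODE M21 places it in the 5′ UTR of a longer transcript. Capitals mark matches on either strand to the GC box GGGCGG, the EGR motif GCGNGGGCG, the AP-1 motif TGANTCA, the CRE TGACGTCA, the TATA motif TATAAA, and the NF-κB and SRF (CArG) consensus motifs.
Zfp36l1, chr12:80113014-80113263, minus strand: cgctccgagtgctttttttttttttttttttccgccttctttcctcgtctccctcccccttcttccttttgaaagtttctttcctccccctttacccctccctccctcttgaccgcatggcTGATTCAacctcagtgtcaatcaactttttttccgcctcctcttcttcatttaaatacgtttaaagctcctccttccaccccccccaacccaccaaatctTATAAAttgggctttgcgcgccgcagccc
Zc3h12a, chr4:125127882-125128131, minus strand: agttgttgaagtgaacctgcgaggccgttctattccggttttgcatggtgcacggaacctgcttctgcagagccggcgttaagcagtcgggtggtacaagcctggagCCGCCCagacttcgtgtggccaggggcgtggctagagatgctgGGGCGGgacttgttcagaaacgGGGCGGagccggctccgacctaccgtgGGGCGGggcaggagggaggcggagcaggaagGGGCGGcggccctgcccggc

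Zfp36 held an EGR motif, a GC box and a CArG box, the last 2 overlapping, Zfp36l1 held an AP-1 and a TATA motif, and Zc3h12a held 5 GC boxes. Of 27025 promoter windows of 300 bases, 5.55% held the EGR motif, 35.9% the GC box, 1.57% the CArG box, 7.93% the AP-1 motif and 14.2% the TATA motif. The CRE, in 1.88% of windows, and the NF-κB consensus, in 8.18%, matched none of the 7 members' windows of 300 bases. This says only that these letters are not in those windows. The windows of Zfp36 and Elavl1 lie inside their genes in GENCODE M21, and that of Khsrp does so in part.

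The enzymes that carry out the decay were compared by lists. Of all genes tested, 20.1% were called higher and 14.7% lower with LPS in WT cells. Between the genotypes 3.51% were called higher and 5.15% lower after LPS, and 4.4% and 3.37% without treatment. Of 19 deadenylation genes tested, 0 were called between the genotypes after LPS (median log2 −0.17, beside −0.03 for all genes tested), while at an unadjusted p under 0.05 in limma 5 were higher and 11 lower, beside 36.4% and 42.2% of all genes tested. With LPS in WT cells 2 rose and 1 fell (median −0.07). These were Btg1 (1.21) and Cnot7 (1.10), a cofactor and a catalytic subunit of the deadenylase complex, and Tob1 (−1.01), an adaptor to it. In untreated cells 1 deadenylation gene, Btg2, was lower in Pim1-/- cells (−1.12). Of 10 decapping and 5′ to 3′ decay genes, 0 were called between the genotypes after LPS (median −0.26), with 1 higher and 7 lower at an unadjusted p under 0.05 in limma, beside the same 36.4% and 42.2% of all genes. In this list 3 genes rose with LPS in WT cells, among them Dcp2, the decapping enzyme (3.04), and Xrn1, the 5′ to 3′ exonuclease (2.10). Dcp1a, the decapping cofactor, was the other (1.55).

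Of 15 exosome and 3′ to 5′ decay genes, 1 was called higher in Pim1-/- cells after LPS, Exosc8 (1.05), beside 3.51% of all genes. The list's median was 0.39. At an unadjusted p under 0.05 in limma 10 were higher and 2 lower after LPS, beside 36.4% and 42.2% of all genes tested. Exosc8 was also higher without treatment (1.29), where the list's median was 0.46. In untreated cells 12 were higher and 2 lower at that p, beside 33.4% and 42.8% of all genes tested. With LPS in WT cells 2 fell, Exosc6 (−1.02) and Exosc5 (−1.001), beside 14.7% of all genes called lower. The other AU-rich element or stem-loop binders had 11 of 16 genes tested. After LPS 2 of them were called lower in Pim1-/- cells, beside 5.15% of all genes. These were N4bp1, an RNA-binding endonuclease, with −1.19 and Arid5a, a stabilizer of Il6 mRNA, with −1.11. N4bp1 was at 64.8 to 66.5 FPKM in WT_4h and at 27.2 to 30.1 in KO_4h. With LPS in WT cells 4 of these binders rose and 1 fell, beside 20.1% and 14.7% of all genes. Arid5a (3.82) and the Regnase relative Zc3h12c (3.55) rose the most, and Zc3h12d fell (−1.21).

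Among 15 kinases, phosphatases and proteases that act on the members, the median difference between the genotypes after LPS was −0.48. At an unadjusted p under 0.05 in limma 1 was higher and 12 lower, beside 36.4% and 42.2% of all genes tested. Mapkapk2, a kinase of this list, was at 1350 to 1382 FPKM in WT_4h and at 665 to 730 in KO_4h, and was not called. Beside 3.51% of all genes called higher and 5.15% lower, only 1 gene of the list was called between the genotypes after LPS. This was Dusp1, the phosphatase that switches off p38 and thereby affects tristetraprolin phosphorylation. It was at 166 to 169 FPKM in WT_4h and at 22.5 to 22.9 in KO_4h, a log2 difference of −2.82 (SE 0.0690, adjusted p = 2.38e-14), and without treatment it was at 2.05 to 2.48 in WT_0h and 3.31 to 4.38 in KO_0h. In WT cells 9 of the 15 rose with LPS and 1 fell, beside 20.1% and 14.7% of all genes. Dusp1 (5.66) and Malt1, the protease that cuts Regnase-1 and the Roquins (5.07), rose the most, and Map2k6, a kinase of p38, fell (−1.32). The list's median LPS change was 1.11 in WT and 0.59 in Pim1-/- cells, beside 0.00 and −0.01 for all genes tested.

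**Figure D5:**
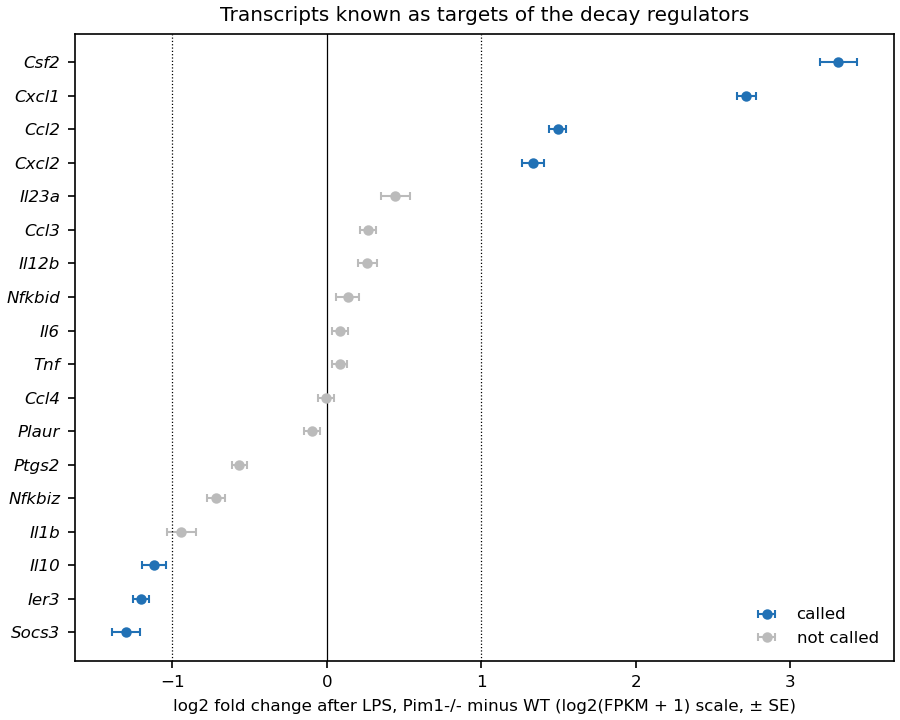
Difference between Pim1-/- and WT cells after LPS for the 18 tested transcripts known as targets of the decay regulators, as log2 fold change on the log2(FPKM + 1) scale with SE. Blue points passed the thresholds and dotted lines mark 2-fold. Csf2, Cxcl1, Ccl2 and Cxcl2 lie above, Il10, Ier3 and Socs3 below, and Tnf and Il6 near 0. Csf2 passed the filter on low values only through KO_4h.

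The mRNAs that the members are known to act on did not move as 1 group with the genotype. Of 22 listed, 18 were tested, and after LPS 4 were called higher and 3 lower in Pim1-/- cells. Of all genes tested, 3.51% were called higher and 5.15% lower. The list's median was 0.08, beside −0.03 for all genes tested. Csf2, which encodes GM-CSF, was at 0.790 to 1.91 FPKM in WT_4h and at 20.1 to 23.4 in KO_4h (log2 3.31, adjusted p = 1.71e-12). Csf2 passed the filter on low values only through KO_4h, the group where it was high. Its call and p-value are therefore not separate from the filter. Il23a, which was not called, passed in the same way. Cxcl1, a neutrophil chemokine, was at 239 to 273 FPKM in WT_4h and at 1542 to 1772 in KO_4h (log2 2.72, adjusted p = 1.65e-14). Socs3, an inhibitor of cytokine signaling, and the early response gene Ier3 were lower in Pim1-/- cells by −1.30 and −1.20 in log2.

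Tnf and Il6, the best known targets of tristetraprolin and Regnase-1, were not called between the genotypes. Tnf was at 3641 to 3846 FPKM in WT_4h and at 3842 to 4184 in KO_4h, a log2 difference of 0.08 (95% interval −0.02 to 0.19, adjusted p = 0.135). Il6 was at 1233 to 1301 FPKM in WT_4h and at 1237 to 1418 in KO_4h, a difference of 0.08 (95% interval −0.02 to 0.19, adjusted p = 0.142). With LPS 17 of the 18 targets, all but Il23a (0.86), rose in WT and 18 of 18 in Pim1-/- cells. The median log2 changes were 7.76 and 7.67. Of all genes tested, 20.1% and 14.6% were called higher. Several of these targets, Il6 and Ptgs2 among them, passed the filter on low values only through their levels after LPS. Their rise was therefore set by the filter. Il1b (12.10) and Il6 (10.31) had the largest values in WT cells. The levels are amounts of mRNA, and decay rates were not measured. The nonamer was in 7 of the 22 listed targets, beside 8.1% of tested genes with a 3′ UTR. Tested genes with 3′ UTRs of about the same length held it in 3.2% for Csf2, 4.2% for Cxcl1 and 7.9% for Cxcl2. Of the 4 targets higher in Pim1-/- cells after LPS, Csf2 and Cxcl2 held 4 copies each and Cxcl1 2, while Ccl2 (log2 1.495) held none. The 3 that were lower, Socs3, Ier3 and Il10, held none. Of the targets that were not called, Tnf held 5 copies, Ptgs2 (−0.57) and Il23a (0.44) 1 each, and Il6 none. These are few genes from a list of known targets. A link between nonamer copies and the direction of the genotype difference was not tested.

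The tested genes whose log2(FPKM + 1) followed each member most closely over the 12 libraries are given by Pearson's r, as a description. All libraries enter each r, and the LPS and genotype groups set most of its spread. For Zfp36 they were Ppp1r15a, a regulator of translation under stress, Ly6e and Clcn7 (r of 0.999 each). Ppp1r15a had group means of 17.1, 9.25, 169 and 101 FPKM in WT_0h, KO_0h, WT_4h and KO_4h. For Zfp36l1 they were Slc46a3, Rnf150 and Ppard (0.998 to 0.999), and for Zfp36l2 Tpra1, Ing4 and Suv420h2 (0.999 each). Tpra1 had group means of 42.7, 24.0, 3.00 and 5.09 FPKM, with the same change of side between the genotypes.

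For Zc3h12a they were Parp14, Tlr6 and Irf7 (0.999 each), of which Irf7 is a transcription factor of the interferon response. Irf7 had group means of 8.83, 2.02, 818 and 396 FPKM. For Rc3h1 they were Intu, Ppfibp1 and Otud1 (0.997 to 0.998), for Rc3h2 Lztfl1, Xiap and Ctnnal1 (0.997 each), and for Elavl1 Ppp2r1b, Vps37b and Spsb1 (0.997 to 0.998). Ppp2r1b, a scaffold subunit of protein phosphatase 2A, had group means of 7.50, 7.71, 32.6 and 18.4 FPKM. For Khsrp they were Cic, Zcchc8 and Preb (0.989 to 0.990). Over the same libraries the r between members was highest for Zfp36 and Zc3h12a (0.996) and lowest for Zfp36l2 and Elavl1 (−0.969).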

How the data were processed

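Total RNA of BMDMs was made into 12 libraries with the TruSeq Stranded mRNA kit. The authors mapped reads with TopHat (version 2.0.13) and computed expression with Cuffdiff (version 2.2.1), and deposited FPKM, 1 column for each library. No header names this unit, which was read from the use of Cuffdiff. The submitters' processing notes name mm10, bcl2fastq (2.20.0.422) and cutadapt (1.18), the methods name rat rn5, and the symbols are mouse symbols, so coordinates come only from GENCODE M21 and RefSeq. Normalization between libraries is not given in the sources used here. FPKM holds no counts, and fragments were estimated from the steps between low values.

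No rescaling was applied. After a filter that asked for 1 FPKM in 3 or more libraries, log2(FPKM + 1) was fitted in R 4.3.3 by limma 3.58.1, giving each of the 4 groups its mean, with a mean-variance trend and Benjamini-Hochberg adjustment over all 10581 genes. The 5 comparisons were those of genotype without and with LPS, of LPS in each genotype, and of the LPS responses. Fold changes on this scale understate the change of low genes. The fit was tested on simulated data. Tables were made with pandas 2.3.3 and numpy 2.4.6 in Python 3.11.15, and plots with matplotlib 3.10.9.

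The members and lists were chosen with earlier results of these data known. Named genes were the members, Pim1, up to 2 called genes per direction in each list after LPS between genotypes and with LPS in WT cells, markers, the 3 genes closest to each member by Pearson's r, and genes of counts of 5 or fewer. Tnf, Il6 and Mapkapk2 in the comparison of genotypes, and the sequences shown, were picked with values in view. The settings varied were the pseudocount, filter, scaling, samples in the fit, trend, threshold, replicate block and each library left out.

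Same-numbered libraries were compared by the correlation of their deviations from the group means under 2 gene filters. With the filter used first, which kept 5416 genes averaging 10 FPKM or more, no comparison had all 3 correlations over 0.1, and those of the untreated genotypes were 0.006, 0.283 and 0.065. The filter was then changed, with these values seen, to the 3646 genes with at least 10 FPKM in every library. Untreated genotypes then gave 0.326, 0.37 and 0.456, KO_4h with KO_0h 0.426, 0.541 and 0.683, the genotypes after LPS 0.02, 0.366 and 0.191, and WT_4h with WT_0h −0.103, 0.141 and 0.191. Since the answer turns on the filter and the sources do not say what a number marks, the numbers were not taken to pair the libraries.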

Additional observations from a re-analysis of the deposited data

Results flagged for a closer look

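The response to LPS differed between the genotypes for Zfp36l1, where that of Pim1-/- cells was less negative by 1.54 in log2 (adjusted p = 4.49e-09, limma), and for Zfp36l2, where it was less negative by 1.53 (adjusted p = 1.51e-11). All 3 Pim1-/- libraries lay below all 3 WT libraries without treatment for both genes. After LPS they lay below for Zfp36l1 and above for Zfp36l2.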

How the results depend on the processing

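When each member's change was set against its value under each alternative, 810 pairs kept direction and side of the threshold, 12 lost the call, 7 gained it and 3 changed sign. The changes of sign were all of Rc3h2, whose values lie near 0: 0.0751 for the difference in response under sum scaling (−0.05 as reported), and −0.00239 and −0.00919 for the genotype difference after LPS without replicate 2 of KO_4h and replicate 1 of WT_4h (0.02 as reported, −0.00919 to 0.0637 over the libraries left out). The count of 1 member called between the genotypes after LPS was 0 under quantile normalization and 0 under sum scaling, and ranged from 0 to 1 over the libraries left out, as Zfp36 crossed 2-fold with values of −1.09 to −0.78 over all alternatives. With an FDR under 0.05 and no fold threshold, which calls more genes by its construction, 5 members were called between untreated genotypes, 7 after LPS, 8 for LPS in Pim1-/- cells and 5 for the difference in response. The remaining 100 counts stayed within 1.5 times. With the replicate number as a block, 3, 1, 6, 5 and 2 members were called in the 5 comparisons, as without it, so the block changed no count of members called. Whether the numbers pair the libraries depended on the gene filter of that check. Depth limits Zfp36l1 after LPS most, at 118 fragments in a library. The cause of the shifts under sum scaling was not tested.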
